A study of Mus musculus with 2 samples.

Results

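The miR-99/100 and miR-125 families were examined in small RNA libraries of the tunica muscularis, the peeled smooth muscle layers of the mouse jejunum. The members were the mature entries of the deposited miRNA table named miR-99a, miR-99b, miR-100, miR-125a or miR-125b, with any copy number or arm suffix. There were 11 of them among 1080 mature entries and 1147 entries in all, and all 11 were above 0 in both libraries. Each miRNA is cut from a hairpin precursor whose arms can both leave a product, called 5p and 3p. The members were compared between genotypes within and across their 3 genomic clusters.

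Both groups came from C57BL/6 mice at 15 days of age that carried the smMHC Cre-eGFP transgene, in which the *Myh11* promoter drives Cre recombinase and eGFP in smooth muscle cells. In the *Dnmt1*-KO group Cre had deleted floxed *Dnmt1*, the maintenance DNA methyltransferase, in those cells, while the *Dnmt1*-WT group had the genotype Dnmt1 WT in its labels. The strain field names Dnmt1lox/lox for both samples, and the description given for the WT sample carries the mutant genotype. The genotype field was followed, and small RNA does not measure *Dnmt1*, so the label was not checked on the deleted gene. In the library labelled KO the summed smooth muscle miRNAs were lower (ratio 0.652) and the summed leukocyte miRNAs higher (1.67), as described with the other cell type markers, and the groups were not assigned from these values. Cre acts only in cells that have turned on *Myh11*, and the tissue also holds other cells. There was 1 library per genotype. Males and females of each genotype were collected, and pooling of their RNA for sequencing is not stated in the methods. No difference could therefore be set against the spread between animals, no test was made, and every interval below covers counting error only.

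miR-125 is the vertebrate counterpart of lin-4, the founding miRNA of worm development, and its members often lie beside a let-7 gene and a member of the miR-99/100 family. miR-99/100 miRNAs are known repressors of the kinase mTOR, and miR-125 miRNAs act on differentiation and apoptosis genes in muscle, blood and other tissues. A miRNA finds its targets mostly through its seed, bases 2 to 8, so products with the same seed share many predicted targets even when they come from different loci.

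The sequences of the 5p products show how close the members are within each family. They are printed 5′ to 3′ from RefSeq (GRCm38.p6), which held all 11 members, with the seed in capitals.
mmu-miR-99a-5p: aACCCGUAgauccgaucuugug
mmu-miR-100-5p: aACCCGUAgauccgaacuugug
mmu-miR-99b-5p: cACCCGUAgaaccgaccuugcg
mmu-miR-125a-5p: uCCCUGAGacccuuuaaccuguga
mmu-miR-125b-5p: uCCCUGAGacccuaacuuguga
The first 3 share the seed ACCCGUA and the last 2 share CCCUGAG. Counted from the 5′ end, miR-99a-5p and miR-100-5p differed by 1 base, U16A, whereas miR-99b-5p differed from miR-99a-5p at 4 positions (A1C, U11A, U16C and U21C). miR-125a-5p and miR-125b-5p were identical over their first 13 bases. The 3p products, by contrast, mostly had a seed of their own. Those with enough reads to follow are shown because they tell apart the loci or arms behind a 5p product.
mmu-miR-125a-3p: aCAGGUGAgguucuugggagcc
mmu-miR-125b-1-3p: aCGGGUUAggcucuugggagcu
mmu-miR-125b-2-3p: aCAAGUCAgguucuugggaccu
mmu-miR-99b-3p: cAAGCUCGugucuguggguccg

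The members fall into 3 clusters, given here on GRCm38 with GENCODE genes. The miR-99b/miR-125a cluster lies on the plus strand of chromosome 17 and is compact, with Mir99b (17830188 to 17830257), Mirlet7e (17830352 to 17830444) and Mir125a (17830812 to 17830879) within 692 bases. Mir99b and Mirlet7e lie in an intron of *Spaca6*, and Mir125a overlaps an exon of that gene. The miR-99a/miR-125b-2 cluster on chromosome 16 spans 47408 bases in introns of the noncoding host *Mir99ahg*, with Mir99a (77598936 to 77599000) and Mir125b-2 (77646273 to 77646343) on either side of Mirlet7c-1. The miR-100/miR-125b-1 cluster on chromosome 9 spans 50578 bases in introns of the noncoding RNA *3110039I08Rik*, with Mir100 (41531425 to 41531504), Mirlet7a-2 and Mir125b-1 (41581926 to 41582002). The mature miR-125b-5p is the same from Mir125b-1 and Mir125b-2, so it cannot be assigned to either cluster, while the 3p products can.

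The deposited values are read counts times a factor per library, close to 1 read per unit, and the WT total was 5741906 against 4754677 for KO. On this scale, ratios depend on how the libraries are equated. Setting their totals equal raised every log2 ratio by 0.27, and ratios between members of the same library do not depend on this choice.

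The members together made up 4.13% of the WT library and 3.0% of the KO library, with a KO/WT ratio of 0.60 (95% interval 0.596 to 0.604). Most of the difference lay in miR-125. Its 5 products summed to 193259 in WT and 102804 in KO, a ratio of 0.532 (0.528 to 0.536), whereas the 6 products of miR-99/100 summed to 44118 and 39682, a ratio of 0.899 (0.887 to 0.912). With equal totals the miR-125 ratio stayed below 1, at 0.642, while that of miR-99/100 became 1.09.

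miR-125a-5p was the most abundant member, at rank 9 of the mature entries in WT and rank 12 in KO. It was listed at 129305 in WT and 68521 in KO, a ratio of 0.530 (0.525 to 0.535). miR-125b-5p followed at 61019 and 31311, a ratio of 0.513 (0.506 to 0.520). These 2 products come from different chromosomes and share a seed, and both were lower in KO by close to the same factor. Their ratios were 0.640 and 0.620 with equal totals.

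In the miR-99/100 family the 3 dominant products went different ways. miR-99b-5p was listed at 33869.8 in WT and 30306 in KO, a ratio of 0.895 (0.881 to 0.909). miR-100-5p stood at 8465 and 6804, a ratio of 0.804 (0.778 to 0.830). miR-99a-5p, the least abundant, was higher in KO, at 1554 and 2423, a ratio of 1.56 (1.46 to 1.66). With equal totals the ratio of miR-99b-5p turned to 1.08, that of miR-100-5p to 0.971 and that of miR-99a-5p to 1.88. Only the last of these was clearly away from 1 on both scales. Its implied reads were not whole numbers in either library (1549.5 and 2429.45), so some reads were divided between entries, and 1 base separates it from miR-100-5p. How the authors' counting split such reads is not stated, and the values of this pair are uncertain to that extent.

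**Figure D1:**
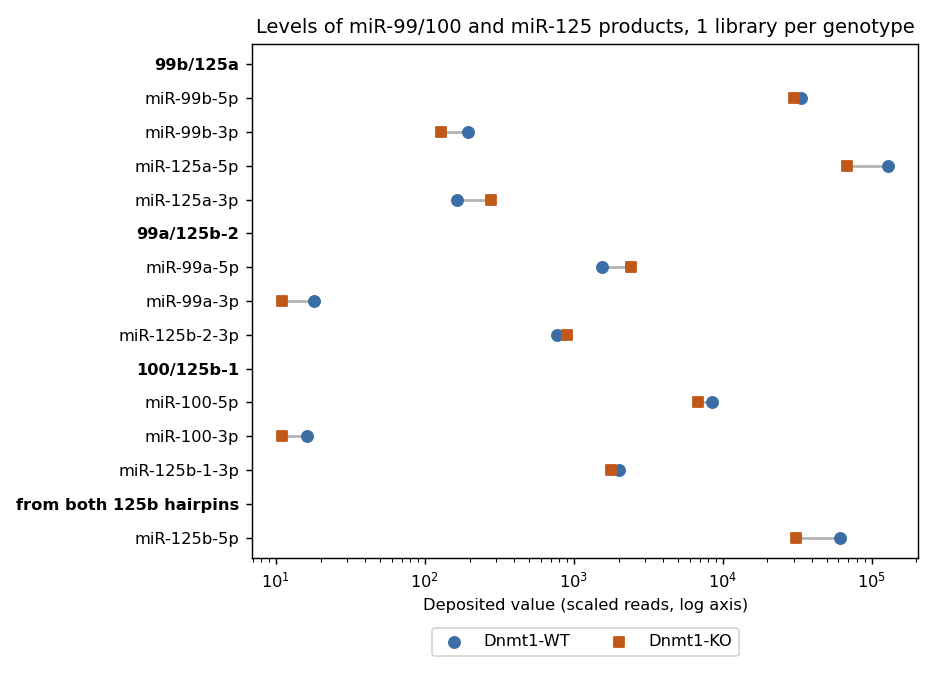
Deposited value (scaled reads, log axis) of each of the 11 members in the Dnmt1-WT library (circles) and the Dnmt1-KO library (squares), grouped by genomic cluster, with 1 library per genotype and no error bars. miR-125a-5p and miR-125b-5p show the widest gaps to the left among the abundant products, and miR-99a-5p, miR-125a-3p and miR-125b-2-3p are higher in KO.

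The 3p products were less abundant than their 5p partners. miR-125a-3p was higher in KO, at 163.5 in WT and 279.2 in KO, a ratio of 1.71 (1.4 to 2.08). miR-125b-2-3p, from the chromosome 16 hairpin, was also higher, at 769.2 and 900.5, a ratio of 1.17 (1.06 to 1.29). miR-125b-1-3p, from chromosome 9, stood at 2003 and 1793, a ratio of 0.895 (0.840 to 0.955), which turned to 1.08 with equal totals. miR-99b-3p was lower in KO, at 194.6 and 127.6, a ratio of 0.656 (0.521 to 0.824). The remaining 3p products rested on few reads. miR-99a-3p was listed at 18.1 and 11 and miR-100-3p at 16.1 and 11, and the intervals of both ratios (0.259 to 1.36 and 0.287 to 1.57) include 1, so no difference was detectable at this depth.

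Of the 11 members, 9 had a mean of both libraries of at least 100. On the deposited scale none of the 9 was at least 2-fold higher or at least 2-fold lower, where 6.39% and 8.31% of the 313 mature entries at this level were, and miR-125b-5p stood just short of the lower limit. At a limit of 1.5-fold, 2 of the 9 were higher (miR-125a-3p and miR-99a-5p) and 3 were lower (miR-125b-5p, miR-125a-5p and miR-99b-3p), against 17.6% and 20.1% of all such entries. A ratio above 1 was found for 3 of the 9 and below 1 for 6, against 47.9% and 52.1% of such entries. With equal totals miR-125a-3p passed 2-fold, so that 1 of the 9 was higher and 0 lower at this limit, against 13.1% and 4.15% of the entries. At 1.5-fold 2 were then higher and 2 lower, against 31.3% and 10.9%, because miR-99b-3p no longer passed, and it passed on neither of the other scalings. With equal totals 5 of the 9 lay above 1 and 4 below, against 65.2% and 34.8%. On the deposited scale the median log2 ratio of the 9 was -0.16, beside -0.02 over the 313 entries and -0.13 over the 136 mature entries with a mean of at least 1000, where the SD was 0.67. miR-125a-5p and miR-125b-5p were the 2 members with the largest differences in reads.

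**Figure D2:**
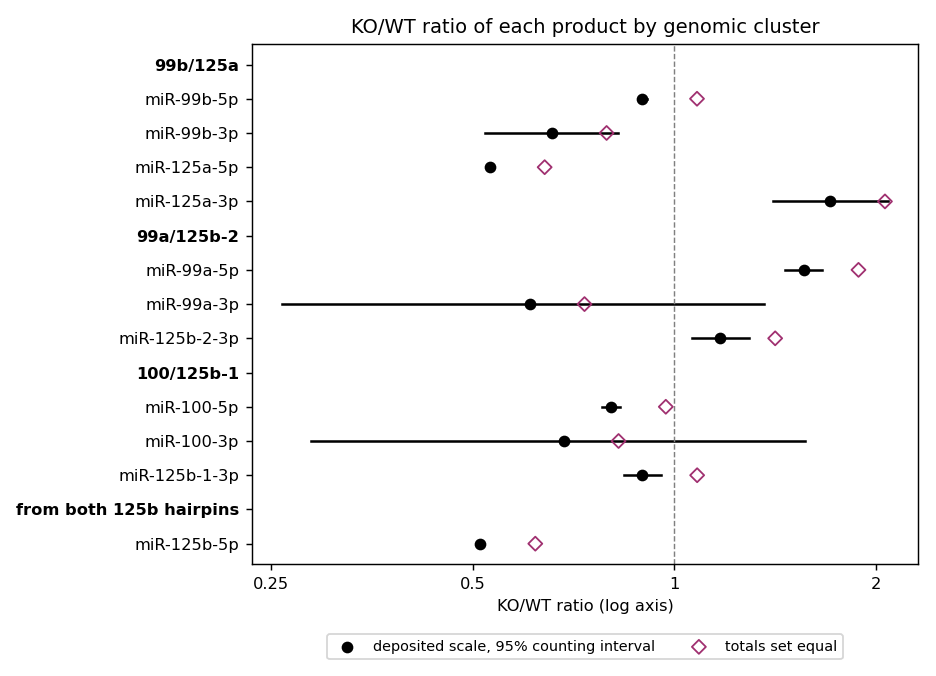
KO/WT ratio (log axis) of each member by genomic cluster, on the deposited scale with its 95% interval for counting error (filled circles and bars) and with library totals set equal (open diamonds). Within the miR-99b/miR-125a cluster the ratios run from 0.530 for miR-125a-5p to 1.71 for miR-125a-3p, while miR-125a-5p and miR-125b-5p, from different clusters, lie side by side.

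The sums by cluster hold members alone, without the let-7 products of these loci, and are not alike in what they hold, since miR-125b-5p, far more abundant than the products that can be assigned, is in neither of the sums that its hairpins belong to. Members of the miR-99b/miR-125a cluster summed to 163533 in WT and 99233 in KO, a ratio of 0.607 (0.602 to 0.612). The difference between these sums lay almost wholly in miR-125a-5p, while miR-99b-5p (33870 and 30306) differed little. Members that can be assigned to the miR-99a/miR-125b-2 cluster summed to 2341 and 3334, a ratio of 1.42 (1.35 to 1.5). Those of the miR-100/miR-125b-1 cluster summed to 10484 and 8608, a ratio of 0.821 (0.798 to 0.845). With miR-125b-5p included, the members of both miR-125b clusters together gave a ratio of 0.586 (0.579 to 0.593), close to that of the miR-99b/miR-125a members. The miR-99b/miR-125a sum was lower and the miR-99a/miR-125b-2 sum higher in KO on each of the 4 scales tried, while the miR-100/miR-125b-1 sum came to 0.992 with equal totals. miR-99a-5p made up most of the miR-99a/miR-125b-2 sum, so the reservation on its divided reads holds for this sum on every scale.

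The ratio of miR-125a-5p lay nearer to that of its seed mate on other chromosomes than to those of its cluster mates. Within the miR-99b/miR-125a cluster, miR-125a-5p was 3.82 times as abundant as miR-99b-5p in WT and 2.26 times in KO, a ratio of ratios of 0.592 (0.582 to 0.603). let-7e-5p, from the hairpin between them, was listed at 26381 and 24427 and followed miR-99b-5p, with a ratio of ratios of 1.03 (1.01 to 1.06). Among these 3 dominant products miR-125a-5p was therefore the one that stood apart, although all 3 hairpins lie within 692 bases on the same strand. Across clusters, the quotient of miR-125a-5p to miR-125b-5p was 2.12 in WT and 2.19 in KO, a ratio of ratios of 1.03 (1.02 to 1.05). With all products of miR-125a and miR-125b it was 0.997 (0.981 to 1.01), an interval that includes 1. None of these values depends on the scaling of the libraries.

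The other clusters could be followed through miR-125b 3p products. On chromosome 16, miR-125b-2-3p against miR-99a-5p gave a ratio of ratios of 0.751 (0.668 to 0.844), and on chromosome 9, miR-125b-1-3p against miR-100-5p gave 1.11 (1.04 to 1.20). Between these loci, miR-125b-2-3p against miR-125b-1-3p gave 1.31 (1.16 to 1.47), and miR-99a-5p against miR-100-5p gave 1.94 (1.81 to 2.08). All of these values but 1.31 involve miR-99a-5p or miR-100-5p and carry the reservation on divided reads given above. Both comparisons between loci put the chromosome 16 products higher relative to those of chromosome 9 in KO. The dominant let-7 products of these clusters are also made elsewhere in the genome and carry no such information. let-7c-5p had a ratio of 0.826 and let-7a-5p of 1.21, while the products made only here, let-7c-1-3p (19.1 in WT, 30.9 in KO) and let-7a-2-3p (10 and 9), had intervals that include 1.

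Within the miR-99/100 family, the share of miR-99b-5p among the 5p reads differed little, at 77.2% in WT (Wilson interval 76.8 to 77.6%) and 76.7% in KO (76.2 to 77.1%). Underneath it, miR-100-5p went from 19.3% to 17.2% and miR-99a-5p from 3.54% (3.37 to 3.72%) to 6.13% (5.90 to 6.37%). For this reason miR-99b-5p against the sum of the other two gave a ratio of ratios of 0.972, with an interval from 0.941 to 1.004 that includes 1, but 0.574 (0.537 to 0.613) against miR-99a-5p alone and 1.11 (1.07 to 1.15) against miR-100-5p alone. The separate values of miR-99a-5p and miR-100-5p carry the reservation on divided reads given above. Among miR-125 5p reads, miR-125a-5p held 67.9% in WT (67.7 to 68.1%) and 68.6% in KO (68.3 to 68.9%). With all products the share of miR-125a was 67.0% in WT and 66.9% in KO. Over both families, miR-125 5p products outnumbered those of miR-99/100 by 4.34 times in WT and 2.53 times in KO, a ratio of ratios of 0.582 (0.573 to 0.592).

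**Figure D3:**
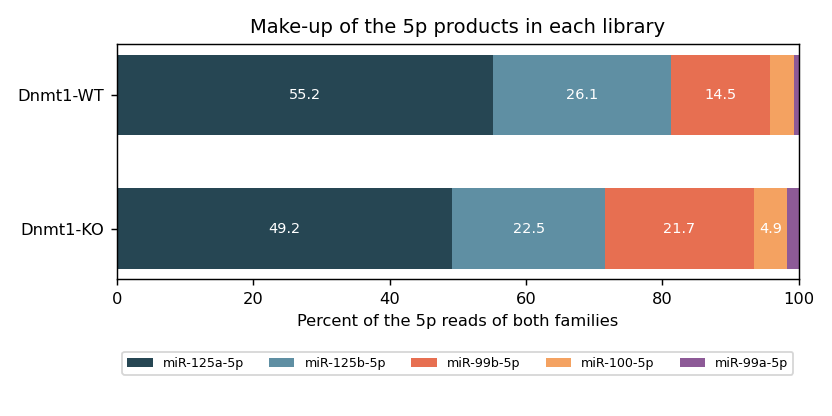
Make-up of the 5p reads of both families in each library, as percent of their sum, with 1 bar per library. The miR-125a-5p part is 55.2% in Dnmt1-WT and 49.2% in Dnmt1-KO, and the miR-99b-5p part is 14.5% and 21.7%.

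The arms of miR-125a lay on opposite sides of a ratio of 1, and its hairpin is shown with both products in capitals, miR-125a-5p at positions 6 to 29 and miR-125a-3p at positions 44 to 65 (RefSeq, GRCm38.p6, chr17:17830812-17830879, plus strand).
Mir125a: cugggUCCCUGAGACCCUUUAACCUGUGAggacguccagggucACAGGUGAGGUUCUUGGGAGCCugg
There were 791 reads of the 5p product for each of the 3p product in WT and 245 in KO, a ratio of ratios of 0.310 (0.254 to 0.378). Among 62 hairpins whose arms both had a mean of at least 100, this gap of 1.69 log2 units between arms was the widest. The median gap was 0.49, and 16 of the 62 hairpins had arms on opposite sides of 1 on the deposited scale. miR-125a remained on opposite sides with equal totals, at 0.640 and 2.06. For miR-99b the 5p product was more abundant relative to the 3p product in KO, from 174 to 238 reads for each, a ratio of ratios of 1.36 (1.08 to 1.72), at rank 32 of the 62.

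For miR-125b the 5p product was also less abundant in KO relative to each 3p product. miR-125b-5p outnumbered miR-125b-1-3p by 30.5 times in WT and 17.5 times in KO, and miR-125b-2-3p by 79.3 and 34.8 times. Against both 3p products together the ratio of ratios was 0.528 (0.5 to 0.558). miR-125 thus had fewer 5p reads for each 3p read in KO. miR-99b had more, as did miR-99a (2.57, 1.14 to 6.03), while the interval for miR-100 (1.18, 0.512 to 2.80) includes 1. Which of its hairpins the miR-125b-5p reads came from cannot be told. The 3p counts behind the values of miR-99a and miR-100 were 11 to 18 reads.

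**Figure D4:**
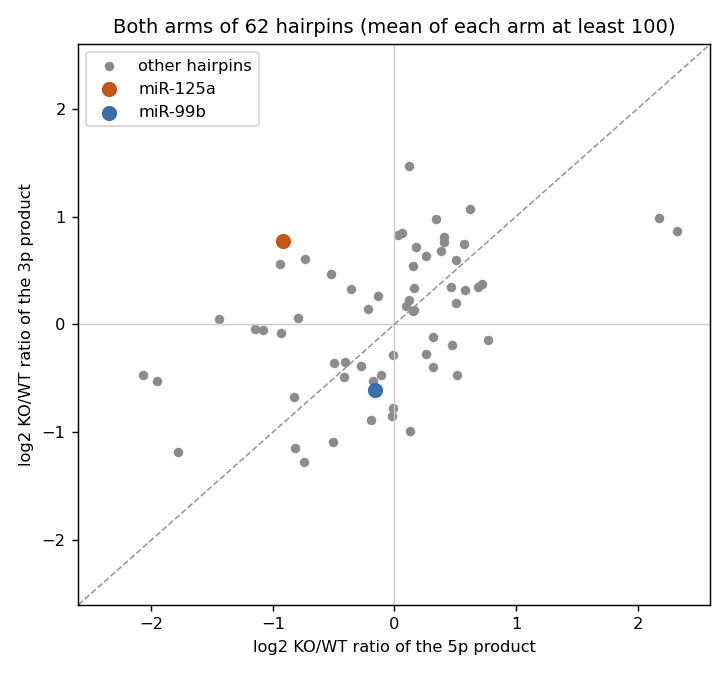
log2 KO/WT ratio of the 5p product (x axis) and of the 3p product (y axis) for the 62 hairpins whose arms each had a mean of 100 or more, on the deposited scale. Each point is 1 hairpin, the dashed line marks equal ratios, and miR-125a lies farthest from it, at -0.92 for 5p and 0.77 for 3p.

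Products of related sequence were compared for context. miR-351-5p, an X-linked miRNA with the seed of miR-125, was listed at 14754 in WT and 13041 in KO, a ratio of 0.884 (0.863 to 0.905), so the common seed did not go with a common ratio beyond miR-125a-5p and miR-125b-5p. The miR-10 products, whose sequence resembles that of miR-99/100 but whose seed is ACCCUGU, had ratios of 0.991 for miR-10a-5p and 2.84 for miR-10b-5p. With equal totals miR-351-5p turned to 1.07 and miR-10a-5p to 1.20.

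miRNAs typical of other cell types also differed between these libraries. All 6 smooth muscle products (miR-143, miR-145a and miR-133a) were lower in KO and summed to 38.6% of the WT library and 30.4% of the KO library, a ratio of sums of 0.652 (0.788 with equal totals). miR-143-3p, at 0.694, carried most of this sum, and the other 5 products lay between 0.259 and 0.598. Their 6 log2 ratios, of both arms of each hairpin, had a median of -1.26, beside -0.92 for miR-125a-5p and -0.96 for miR-125b-5p. The dominant arms alone stood at -0.53 for miR-143-3p, -0.74 for miR-145a-5p and -1.76 for miR-133a-3p. Both miR-125 products lay between the last 2 of these. Of 9 leukocyte products, 8 were higher, and the sum of the 9 went from 6085 to 10150.3. miR-342-3p (4175 and 5024, ratio 1.20) was the largest part of this sum, and miR-142a-5p (579 and 2898) had the largest difference. miR-150-3p, among the 8, was listed at 3 and 4, and its interval includes 1, as does that of miR-342-5p, the lower product. All 4 red cell products listed of 5 were higher (12745 and 47217 in sum), as were both endothelial miR-126a products (10079.5 and 14281.5). miR-486a-5p, at 12592 in WT and 46756 in KO, made up almost all of the red cell sum. miR-144-3p (2 and 20.9) and miR-144-5p (10 and 19) rested on few reads, and the interval of miR-144-5p (0.836 to 4.55) includes 1. Of 8 epithelial products 4 were higher and 4 lower (14503 and 18129), and of 6 neural products 2 were higher and 4 lower (9217 and 8066). The counting intervals of all 4 lower epithelial products include 1, as do those of miR-141-3p, counted as higher, and of neural miR-128-3p, counted as lower. With equal totals all 9 leukocyte products, all 8 epithelial products and 3 of the neural products were higher. None of the listed markers was at 0 in either library, and the part of cell composition in the values of the members was not tested. In bulk tissue, fewer cells of a type and less miRNA per cell cannot be told apart.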

How the data were processed

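Small RNA libraries (TruSeq Small RNA kit) from 1 *Dnmt1*-WT and 1 *Dnmt1*-KO sample were sequenced and processed by a commercial provider against GRCm38/mm10; the submitters' processing notes name Bowtie. The scaling, the handling of multiply matching reads and the release of the miRNA database are not given in the sources used here. The table deposited by the authors gives scaled read counts with 1 decimal, and their own fold change column was not used. The value of 1 read was estimated as the step of which most values from 20 to 300 were whole multiples within 0.08: 1.00284 in WT (89.1% of 229 values) and 0.997 in KO (91.1% of 248), or 5725645 and 4768128 reads. The estimate was tested on simulated data.

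KO/WT ratios are of deposited values without pseudocount, with the exact (Clopper-Pearson) 95% interval of the KO share of reads, rounded to whole reads. Ratios of ratios have exact conditional intervals, and shares Wilson intervals. No molecular identifiers were read, so reads may be copies of 1 molecule and intervals cover counting error only. All members were named, with cluster partners, relatives and marker lists. For each cluster, the 3 entries other than members nearest in ratio (mean of at least 1000) were also named. Members and lists were chosen with earlier results of these data known, and the comparisons of arms over all hairpins and of neighbouring hairpins were added after the values were seen. Python 3.11.15, scipy 1.17.1 and R's fisher.test were used.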

Additional observations from a re-analysis of the deposited data

How the results depend on the processing

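Of the alternative settings tried for the cluster sums, equal totals moved each sum most. With equal totals, equal totals without miR-143-3p, and a median ratio of 1 over entries at 100 or more, the miR-99b/miR-125a sum gave 0.733, 0.683 and 0.621, miR-125b-5p gave 0.620, 0.578 and 0.526, the miR-99a/miR-125b-2 sum gave 1.72, 1.60 and 1.46, and the miR-100/miR-125b-1 sum gave 0.992, 0.924 and 0.841. With equal totals, and with equal totals without miR-143-3p, miR-99b-5p turned to 1.08 and 1.01 and miR-125b-1-3p to 1.08 and 1.01. With 5p products alone the miR-99a/miR-125b-2 sum gave 1.56, and the share of miR-125a in its family was 67.9% in WT and 68.6% in KO, beside 67.0% and 66.9% with all products. miR-125a against miR-125b, 1.03 from 5p products, became 0.997 (0.981 to 1.01) with all products. miR-99b against miR-99a alone gave 0.574 and against miR-100 alone 1.11. Without a minimum mean, 26.1% of mature entries and 26.7% of all entries were at least 2-fold higher and 22.0% and 23.1% lower, mostly entries of few reads. No paired analysis was possible because there was 1 library per genotype, and no library could be left out.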

Other observations

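Neighbouring hairpins offered a frame for the gap inside the miR-99b/miR-125a cluster. Each hairpin was taken by its most abundant product made from 1 hairpin and with a mean of at least 1000. Over 14 pairs of such products at most 1000 bases apart on the same strand, the median gap between log2 ratios was 0.20. The gaps of let-7e-5p to miR-125a-5p and of miR-99b-5p to miR-125a-5p, 0.81 and 0.76, were at ranks 4 and 5 from the widest, and that of miR-99b-5p to let-7e-5p, 0.05, was at rank 12. The widest was that of miR-351-5p to miR-322-5p, 0.90. Pairs share members, so they are not independent.

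The abundant entries other than the members that lay nearest in ratio to each sum, or to miR-125b-5p, were named as a description over 2 libraries. For the miR-99b/miR-125a sum they were miR-652-3p, miR-301a-3p and miR-30b-5p, with ratios of 0.604, 0.611 and 0.601. For miR-125b-5p they were miR-484 (0.503), miR-29a-3p (0.498) and miR-378a-3p (0.541). For the miR-99a/miR-125b-2 sum they were miR-434-5p, miR-431-5p and miR-381-3p, each at 1.42 or 1.43. For the miR-100/miR-125b-1 sum they were miR-27b-3p (0.823), miR-378c (0.817) and let-7c-5p (0.826).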
